A study of Mus musculus with 4 samples.

Results

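Aminoacyl-tRNA synthetases are the enzymes that join each amino acid to its transfer RNA, and their mRNAs were followed here in a mouse lung epithelial line before and after a scratch wound. The members were the genes whose symbol in the authors' RPKM table has the form of a synthetase name (a letter for the amino acid, then "ars", with or without an ending), which gave 37 of the 14844 genes of that table. Lars2, the mitochondrial leucine enzyme, was left out because it overlaps a ribosomal RNA repeat, and 36 genes remained: 19 named as cytosolic enzymes and 17 whose symbol ends in 2, the ending of the mitochondrial enzymes. All 36 passed the filter on low counts, at least 1 CPM (counts divided by the size of the library) in at least 1 library. One of the 17, Tarsl2, carries that ending but encodes a threonyl-tRNA synthetase known as cytosolic.

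The study asked what Lingo1, a leucine-rich repeat membrane protein, does in epithelial wound repair. MLE-12 cells come from a lung tumour of a mouse that carried SV40 large T antigen under the human surfactant protein C promoter, so every library is from that transformed line. The 4 libraries, 1 per condition, were labelled Lingo1 KO 24 hours after a scratch, Lingo1 KO unscratched, WT (wild type) 24 hours after a scratch and WT unscratched. The columns marked N were taken as unscratched because the others are marked S for scratch, and what follows on the scratch depends on that. The labels say neither how the knockout line was made nor whether it is 1 clone.

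Each cytosolic synthetase charges the tRNAs of the main translation system, and several of them are held in the multisynthetase complex together with the scaffold proteins Aimp1, Aimp2 and Eef1e1. The mitochondrial enzymes are encoded by separate nuclear genes and imported, except that the genes for the glycine and lysine enzymes, Gars and Kars, each give both forms. When amino acids run short or the endoplasmic reticulum is stressed, translation of the transcription factor ATF4 goes up, and ATF4 is known in mouse and human cells to raise many of the cytosolic synthetase genes through a C/EBP-ATF response element.

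The libraries held 48333801 (knockout-labelled, scratched), 29533746 (knockout-labelled, unscratched), 27907279 (wild type, scratched) and 26903429 (wild type, unscratched) counts, and no condition had a replicate. Lingo1 itself was at 41.4 and 41.2 CPM in the scratched and unscratched libraries labelled knockout, against 42.9 and 46.4 CPM in wild type, so these counts do not show a loss of its mRNA and the genotypes are given as labelled. Of the 7 lung epithelium markers, the adhesion protein Cdh1 stood at 712 to 859 CPM and the lung transcription factor Nkx2-1 at 128 to 163 CPM, while the adhesion protein Epcam stood at 5.28 to 5.47 CPM and Krt18 had at most 0.287 CPM. Of the 7 fibroblast markers, Dcn stood at 2481 to 2846 CPM, and those that differed between the genotype labels are given further below. Leukocyte markers summed to 1.77 to 2.11 CPM per library, with Ptprc at 0 counts in all 4. Of the 4 endothelial markers, Cdh5 was at 0 counts, Pecam1 and Kdr stayed under 1 CPM, and Tek stood at 179 to 219 CPM.

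Cytosolic synthetase mRNAs were more abundant than mitochondrial ones in every library. On the RPKM scale, which divides by gene length and library size and so allows genes to be compared, the cytosolic enzymes had a median level of 41.1 RPKM in scratched and 37.8 RPKM in unscratched knockout-labelled cells, against 40.03 and 35.2 RPKM in scratched and unscratched wild-type cells. The enzymes ending in 2 had medians of 5.93 and 5.27 RPKM in scratched and unscratched knockout-labelled cells, and 6.67 and 5.74 RPKM in scratched and unscratched wild-type cells. Averaged over the 4 libraries, single cytosolic members spanned 16.2 RPKM (Tars, the threonine enzyme) to 128 RPKM (Gars, the glycine enzyme), and members ending in 2 spanned 0.878 RPKM (Mars2, for methionine) to 18.7 RPKM (Iars2, for isoleucine). Iars2 was the only member ending in 2 within the cytosolic range.

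Gars stood apart at the top, with 138 RPKM in scratched and 122 RPKM in unscratched knockout-labelled cells, against 139 and 113 RPKM in scratched and unscratched wild-type cells. Kars, the lysine enzyme and the other gene that gives both forms, was next, with 87.2 RPKM in scratched and 83.04 RPKM in unscratched knockout-labelled cells, against 84.4 and 74.5 RPKM in scratched and unscratched wild-type cells. The alanine enzyme Aars and the asparagine enzyme Nars followed at a mean of 71.2 and 68.9 RPKM. Next above Mars2 at the bottom, Ears2, the mitochondrial glutamate enzyme, averaged 1.63 RPKM. For the 13 amino acids with an enzyme of each kind shown here, which make 14 pairs because the phenylalanine enzyme has the subunits Farsa and Farsb, the cytosolic level was 1.43 (isoleucine) to 36.1 (methionine) times the mitochondrial one, with a median of 4.27. The cytosolic form was the more abundant in every pair.

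**Figure D1:**
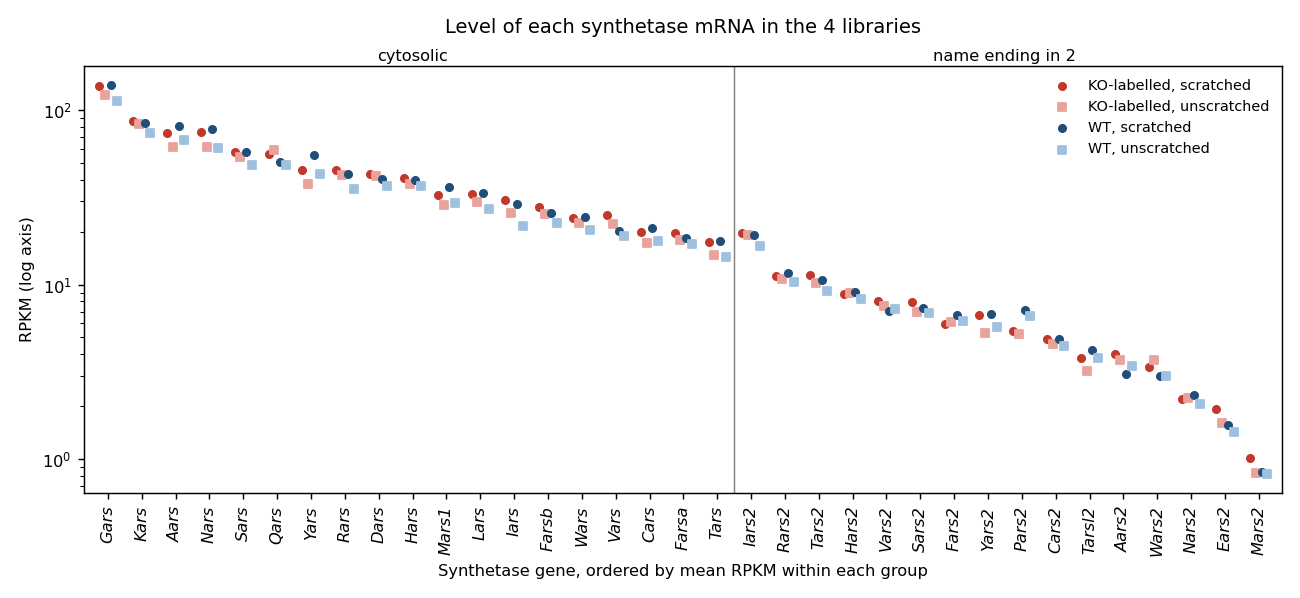
RPKM (log axis) of the synthetase genes reported singly in the 4 libraries, red for knockout-labelled and blue for wild-type cells, circles for scratched and squares for unscratched, 1 library per point and no error bar. Cytosolic members lie at 14.4 RPKM or above, and among members ending in 2 only Iars2 reaches that range.

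After the scratch, 9 of the 19 cytosolic synthetases rose, and no member fell. The test was edgeR's quasi-likelihood test on all 4 libraries, with genotype as a second term and Benjamini-Hochberg adjustment over 12348 genes, and it called 1.47% of all genes as risen and 1.44% as fallen. None of the 17 enzymes ending in 2 passed it, the lowest adjusted p being 0.0592 (Yars2). The Yars2 effect (log2 0.30 ± 0.09 SE) lay within the range of the 9 that rose, with a larger SE, so not passing does not mean no response. At an unadjusted p under 0.05 the counts were 17 cytosolic and 4 mitochondrial members, all higher, against 8.92% of all genes. DESeq2 called 4 and 0 higher, against 0.211% of all genes. The members that rose were Iars (log2 0.35 ± 0.06 SE), Nars (log2 0.33 ± 0.06 SE), Yars (log2 0.31 ± 0.06 SE), Aars (log2 0.29 ± 0.06 SE), Tars (log2 0.28 ± 0.05 SE), Mars1 (log2 0.25 ± 0.06 SE), Gars (log2 0.25 ± 0.06 SE), Cars (log2 0.24 ± 0.05 SE) and Lars (log2 0.23 ± 0.06 SE). With 1 library per condition, the spread in this test comes from the gap between the 2 genotypes' scratch responses, so its p-values are about these 4 libraries and not about cultures.

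Within a genotype, folds are ratios of CPM between 2 libraries with an exact 95% Clopper-Pearson interval that covers counting error only, and a gene was called when it differed by at least 1.2-fold and its interval excluded 1. In knockout-labelled cells 4 of 19 cytosolic members were called higher after the scratch, against 2.23% of all genes tested, and in wild-type cells 9 were, against 4.12%. No cytosolic member was called lower in either, against 3.24% of all genes in knockout-labelled and 5.26% in wild-type cells. The median cytosolic log2 difference was 0.15 in knockout-labelled and 0.26 in wild-type cells, where the median of all genes was 0.01 and 0.02. Counting only the sign, 18 of the 19 were higher after the scratch in knockout-labelled cells and all 19 in wild-type cells. Aars, Nars, Yars and Iars were called higher in both genotypes, which share no library. That is 21.1% of the cytosolic members, against 0.648% of all genes.

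Iars, the isoleucine enzyme of the multisynthetase complex (chromosome 13, 49682100 to 49734267), was counted at 137 CPM in scratched and 113 CPM in unscratched knockout-labelled cells, against 128 and 95.3 CPM in scratched and unscratched wild-type cells. Its scratched library was the higher one in both genotypes, by 1.21-fold (95% interval 1.16 to 1.26) in knockout-labelled and 1.35-fold (95% interval 1.28 to 1.42) in wild-type cells, the largest cytosolic fold in wild type. Nars, for asparagine, was counted at 208 CPM in scratched and 168 CPM in unscratched knockout-labelled cells, against 214 and 167 CPM in scratched and unscratched wild-type cells. It was 1.24-fold (95% interval 1.195 to 1.28) higher after the scratch in knockout-labelled and 1.28-fold (95% interval 1.23 to 1.33) higher in wild-type cells, and both scratched libraries lay above both unscratched ones. Yars, for tyrosine (chromosome 4, 129189760 to 129219607), had 133 CPM in scratched and 110.2 CPM in unscratched knockout-labelled cells, against 160.3 and 125 CPM in scratched and unscratched wild-type cells, with folds of 1.203 in knockout-labelled and 1.29 in wild-type cells. Here the scratched knockout-labelled library was only a little above the unscratched wild-type one. Aars (chromosome 8, 111033144 to 111057664) had 430.0 CPM in scratched and 353 CPM in unscratched knockout-labelled cells, against 469 and 385 CPM in scratched and unscratched wild-type cells. It was 1.22-fold (95% interval 1.19 to 1.25) higher in knockout-labelled and 1.22-fold (95% interval 1.19 to 1.25) higher in wild-type cells, the closest match between the genotypes among the members that rose.

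The other members that rose also had smaller folds in knockout-labelled than in wild-type cells, as Iars, Nars and Yars did. The counting interval for the difference of the log2 responses included 0 for Mars1, Tars, Cars and Nars. Gars (chromosome 6, 55038007 to 55079500) had 329 CPM in scratched and 289.7 CPM in unscratched knockout-labelled cells, against 332 and 268 CPM in scratched and unscratched wild-type cells. It was 1.14-fold (95% interval 1.11 to 1.17) higher after the scratch in knockout-labelled and 1.24-fold (95% interval 1.204 to 1.28) higher in wild-type cells. Lars, for leucine, had 132 CPM in scratched and 119 CPM in unscratched knockout-labelled cells, against 133 and 107 CPM in scratched and unscratched wild-type cells, with folds of 1.11 in knockout-labelled and 1.24 in wild-type cells. Mars1, for methionine, which starts every protein, had 100.3 CPM in scratched and 87.1 CPM in unscratched knockout-labelled cells, against 111 and 89.8 CPM in scratched and unscratched wild-type cells, with folds of 1.15 in knockout-labelled and 1.24 in wild-type cells. Tars (chromosome 15, 11382301 to 11399665) had 72.4 and 60.7 CPM in scratched and unscratched knockout-labelled cells and 72.9 and 58.8 CPM in scratched and unscratched wild-type cells, and Cars, for cysteine, had 64.8 and 55.5 CPM in scratched and unscratched knockout-labelled cells and 68.2 and 57.1 CPM in scratched and unscratched wild-type cells. In each of these 5 genes both scratched libraries lay above both unscratched ones.

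The remaining 10 cytosolic members did not pass the test. The arginine enzyme Rars came nearest (adjusted p = 0.0535 with edgeR's quasi-likelihood test). It had 96.1 CPM in scratched and 89.3 CPM in unscratched knockout-labelled cells, against 90.5 and 73.9 CPM in scratched and unscratched wild-type cells, a fold of 1.08 in knockout-labelled and 1.22 in wild-type cells, and the unscratched wild-type library was the low one. Sars (serine), Wars (tryptophan), Farsb and Kars had folds of 1.08, 1.07, 1.105 and 1.06 in knockout-labelled and of 1.19, 1.18, 1.15 and 1.14 in wild-type cells. Hars (histidine), Farsa, Dars (aspartate) and Vars (valine) had folds of 1.09, 1.11, 1.03 and 1.13 in knockout-labelled and 1.1, 1.1, 1.101 and 1.07 in wild-type cells. Qars, the glutamine enzyme, was the exception to the common sign, at 0.955-fold (95% interval 0.923 to 0.989) in knockout-labelled and 1.04-fold (95% interval 0.997 to 1.09) in wild-type cells, from 172 and 180.3 CPM in scratched and unscratched knockout-labelled cells and 155 and 149 CPM in scratched and unscratched wild-type cells.

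In CPM, Kars had 212 and 201 CPM in scratched and unscratched knockout-labelled cells and 204 and 179 CPM in scratched and unscratched wild-type cells. Sars had 207 and 192 CPM in scratched and unscratched knockout-labelled cells and 205 and 173 CPM in scratched and unscratched wild-type cells. Dars, a complex member, had 93.6 and 90.9 CPM in scratched and unscratched knockout-labelled cells and 87.7 and 79.6 CPM in scratched and unscratched wild-type cells. In all 3 the unscratched wild-type library was the lowest. Wars had 69.8 and 65.1 CPM in scratched and unscratched knockout-labelled cells and 70.1 and 59.3 CPM in scratched and unscratched wild-type cells, with the same library lowest. Hars had 82.1 and 75.02 CPM in scratched and unscratched knockout-labelled cells and 79.7 and 72.4 CPM in scratched and unscratched wild-type cells. The phenylalanine subunits had similar patterns, Farsa with 66.5 and 60.2 CPM in scratched and unscratched knockout-labelled cells and 62.2 and 56.5 CPM in scratched and unscratched wild-type cells, and Farsb with 57.3 and 51.9 CPM in scratched and unscratched knockout-labelled cells and 52.8 and 45.97 CPM in scratched and unscratched wild-type cells. Their products form 1 enzyme, and the scratched library was the higher one in both genotypes for both subunits.

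**Figure D2:**
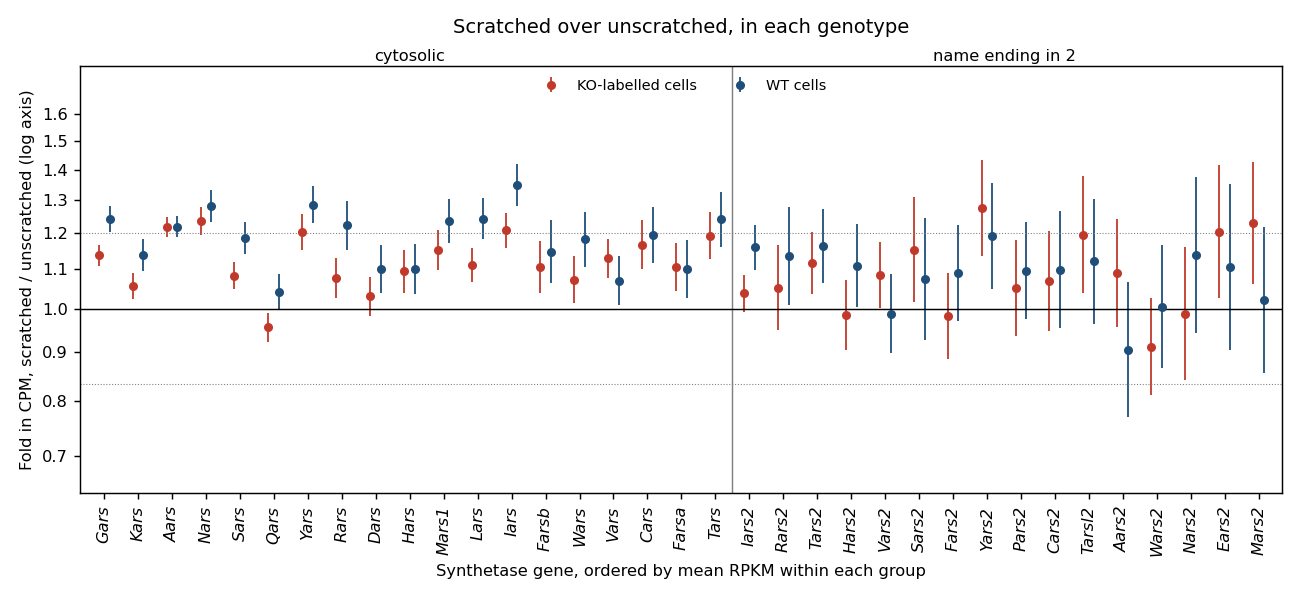
Fold in CPM between the scratched and the unscratched library (log axis) for the synthetase genes reported singly, red for knockout-labelled and blue for wild-type cells, with exact 95% counting intervals and dotted lines at 1.2-fold either way. All cytosolic wild-type points lie above 1, up to 1.35 for Iars, and among cytosolic members only Qars lies below 1 in knockout-labelled cells. The members at the right lie mostly at smaller folds with wider intervals, but the largest knockout-labelled fold is that of Yars2, at 1.28.

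The cytosolic members were counted by whether they are known ATF4 targets. Of the 12 members listed as such from textbook knowledge (Aars, Cars, Gars, Iars, Lars, Mars1, Nars, Sars, Tars, Vars, Wars and Yars), 9 rose in the edgeR quasi-likelihood test and 3 did not pass, and of the 7 others (Dars, Farsa, Farsb, Hars, Kars, Qars and Rars) 0 rose. The lists were chosen with earlier results of these data known, so this split only describes these libraries. The difference between the lists was not tested. Their median log2 differences after the scratch were 0.21 and 0.11 in knockout-labelled cells and 0.31 and 0.14 in wild-type cells. By membership of the multisynthetase complex, 3 of the 7 complex members (Iars, Lars and Mars1) and 6 of the 12 others rose. By catalytic class, 5 of 9 class I and 4 of 10 class II cytosolic enzymes rose. Each of these counts of risen members stands against 1.47% of all genes tested.

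The element that ATF4 binds with a C/EBP partner was looked for in the promoters of the members, because 12 of them are known targets. RefSeq promoter windows (GRCm38.p6, 250 bases before to 50 after the annotated start) were at hand for 12 cytosolic members and 14 members ending in 2, with none, among others, for Cars, Hars, Hars2, Lars, Nars, Pars2, Rars, Vars and Wars. The 8 letters searched were TGATGNAA, where N is any base, on both strands. They were found in 5 of 12 cytosolic windows (Aars, Gars, Iars, Tars and Yars) and in 0 of 14 windows of members ending in 2. Among all genes tested here that have a window, 2.57% held the motif (246 of 9589), and over every gene with a RefSeq window the share was 4.51%. The 5 genes are among the 9 that rose. Mars1 rose and had no match in its window, which says only that these letters are not in it. A second motif, CACGTG, which reads the same on both strands, was searched after these values had been seen. It was in 4 of 12 cytosolic windows, 1 of 14 windows of members ending in 2 and 11.8% of those of all genes tested. The motifs have too few letters in common to match at the same place, and partial overlap of matches was not counted. A match is a description of the sequence, and binding was not measured.

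The stretches below show the matches, which share every letter of TGATGNAA but N because the search required it. Each is 30 bases long, 5′ to 3′ on the strand that reads the motif, with the motif in capitals, and Asns, the asparagine synthetase gene whose element is the textbook case, is given for comparison.
Aars, chr8:111033840-111033869, minus strand: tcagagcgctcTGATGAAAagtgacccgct
Gars, chr6:55037960-55037989, minus strand: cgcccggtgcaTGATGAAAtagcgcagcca
Iars, chr13:49682126-49682155, minus strand: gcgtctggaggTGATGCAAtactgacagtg
Tars, chr15:11399655-11399684, plus strand: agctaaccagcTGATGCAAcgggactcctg
Yars, chr4:129189895-129189924, plus strand: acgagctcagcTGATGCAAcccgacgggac
Asns, chr6:7693214-7693243, minus strand: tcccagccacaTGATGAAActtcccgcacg

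Of these, Iars, Tars and Yars carry TGATGCAA, and Aars, Gars and Asns carry TGATGAAA. The match begins 30 bases before the start in Gars, 23 in Asns and 15 in Tars. In Yars, Iars and Aars it begins at base 4, 8 and 10 of the transcript as RefSeq annotates it. All of these lie within 30 bases of the start on either side.

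The enzymes ending in 2 had smaller median differences after the scratch. Their median log2 difference was 0.09 in knockout-labelled and 0.14 in wild-type cells, and 12 and 15 of 17 were above 0. The median of all genes was 0.01 and 0.02 in the same order. In knockout-labelled cells 3 of the 17 were called higher, Yars2 (1.28-fold), Mars2 (1.23-fold) and Ears2 (1.204-fold), against 2.23% of all genes. The cytosolic count in the same cells was 4 of 19, and the Yars2 fold was the largest there of any member. In wild-type cells none of the 17 was called higher, against 4.12% of all genes. The largest fold there was 1.19-fold (95% interval 1.05 to 1.36) for Yars2. They also had fewer reads, 188 to 5204 counts per gene and library against 1246 to 20599 for cytosolic members, and their intervals were wider. Summed over the 17 genes, the level after the scratch was 1.06 times the unscratched one in knockout-labelled cells (95% counting interval 1.03 to 1.08) and 1.11 times in wild-type cells (1.08 to 1.14). The 19 cytosolic genes summed to 1.13 times (1.12 to 1.14) in knockout-labelled and 1.199 times (1.19 to 1.21) in wild-type cells. The cytosolic interval lay above the mitochondrial one in both genotypes, and these intervals cover counting error only.

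Among the members ending in 2, Iars2 was the most abundant, with 109 CPM in scratched and 105 CPM in unscratched knockout-labelled cells, against 106 and 91.1 CPM in scratched and unscratched wild-type cells. After the scratch it was 1.04-fold (95% interval 0.992 to 1.09) in knockout-labelled and 1.16-fold (95% interval 1.099 to 1.22) in wild-type cells, and the unscratched wild-type library was the low one. Yars2 had 18.8 CPM in scratched and 14.8 CPM in unscratched knockout-labelled cells, against 19.1 and 16.01 CPM in scratched and unscratched wild-type cells, both scratched libraries being the higher ones. Tars2 had 41.1 and 36.8 CPM in scratched and unscratched knockout-labelled cells and 38.4 and 33.02 CPM in scratched and unscratched wild-type cells, with folds of 1.12 and 1.16, the first in knockout-labelled cells. Tarsl2 had 12.2 and 10.2 CPM in scratched and unscratched knockout-labelled cells and 13.4 and 11.99 CPM in scratched and unscratched wild-type cells, with folds of 1.19 in knockout-labelled and 1.12 in wild-type cells, neither of them called. Rars2, Cars2, Sars2 and Pars2 (for arginine, cysteine, serine and proline) had folds of 1.05, 1.07, 1.15 and 1.05 in knockout-labelled and 1.13, 1.098, 1.07 and 1.096 in wild-type cells. Hars2, Fars2, Nars2 and Wars2 were below 1 in knockout-labelled cells, at 0.983, 0.982, 0.987 and 0.911, and at 1.11, 1.09, 1.14 and 1.004 in wild-type cells. Vars2 and Aars2 went the other way round, at 1.08 and 1.09 in knockout-labelled and 0.987 and 0.906 in wild-type cells, and Ears2 and Mars2 were at 1.11 and 1.02 in wild-type cells.

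In CPM, Rars2 had 21.00 and 19.97 CPM in scratched and unscratched knockout-labelled cells and 21.7 and 19.1 CPM in scratched and unscratched wild-type cells. Hars2 had 29.5 and 29.98 CPM in scratched and unscratched knockout-labelled cells and 30.4 and 27.4 CPM in scratched and unscratched wild-type cells. Vars2 had 35.99 and 33.2 CPM in scratched and unscratched knockout-labelled cells and 31.4 and 31.8 CPM in scratched and unscratched wild-type cells. Rars2 and Hars2 were highest in scratched wild-type cells and Vars2 in scratched knockout-labelled cells. Fars2 had 20.04 and 20.4 CPM in scratched and unscratched knockout-labelled cells and 22.5 and 20.6 CPM in scratched and unscratched wild-type cells. Sars2 had 14.9 and 12.9 CPM in scratched and unscratched knockout-labelled cells and 13.8 and 12.8 CPM in scratched and unscratched wild-type cells. Cars2 had 15.3 and 14.3 CPM in scratched and unscratched knockout-labelled cells and 15.2 and 13.9 CPM in scratched and unscratched wild-type cells. Fars2 was highest in scratched wild-type cells, and Sars2 and Cars2 were higher in the scratched library of both genotypes. The least abundant members had the fewest counts and the widest intervals. Wars2 had 14.9 and 16.4 CPM in scratched and unscratched knockout-labelled cells and 13.2 and 13.1 CPM in scratched and unscratched wild-type cells, and Nars2 had 8.37 and 8.48 CPM in scratched and unscratched knockout-labelled cells and 8.82 and 7.75 CPM in scratched and unscratched wild-type cells. Aars2 had 13.5 and 12.4 CPM in scratched and unscratched knockout-labelled cells and 10.3 and 11.4 CPM in scratched and unscratched wild-type cells. Ears2 had 9.48 and 7.87 CPM in scratched and unscratched knockout-labelled cells and 7.67 and 6.94 CPM in scratched and unscratched wild-type cells, and Mars2 had 11.5 and 9.39 CPM in scratched and unscratched knockout-labelled cells and 9.46 and 9.26 CPM in scratched and unscratched wild-type cells. Aars2, Ears2 and Mars2 were each highest in scratched knockout-labelled cells.

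Pairing the enzymes by amino acid removes differences in which amino acids the lists hold. The cytosolic enzyme had the larger scratch response in 11 of 14 pairs in knockout-labelled cells and in 13 in wild-type cells, with median gaps of 0.14 and 0.12 on the log2 scale. Farsa and Farsb share Fars2, so the pairs are not all separate. The widest gap was for asparagine in knockout-labelled cells (0.31 for Nars and -0.02 for Nars2) and for alanine in wild-type cells (0.29 for Aars and -0.14 for Aars2). The pairs against the trend were methionine, serine and tyrosine in knockout-labelled cells and histidine in wild-type cells.

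**Figure D3:**
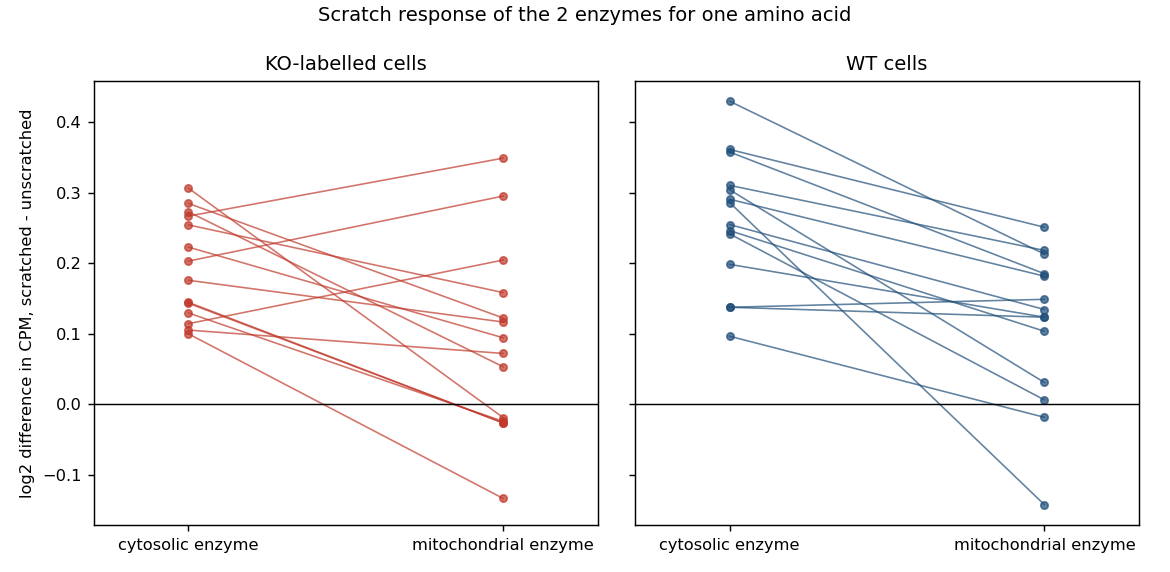
log2 difference in CPM between the scratched and the unscratched library for the cytosolic (left) and mitochondrial (right) enzyme of each amino acid, a line joining each of the 14 pairs, with knockout-labelled cells in the left and wild-type cells in the right panel and no error bars. Lines fall to the right in 11 pairs in knockout-labelled and 13 in wild-type cells.

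The proteins that work with the synthetases were followed as lists. Of the 4 partners, 2 passed as higher after the scratch and 0 as lower in the edgeR quasi-likelihood test, against 1.47% and 1.44% of all genes. Eef1e1, a scaffold of the multisynthetase complex, rose (log2 0.41 ± 0.09 SE), with 18.3 CPM in scratched and 13.7 CPM in unscratched knockout-labelled cells, against 16.7 and 12.7 CPM in scratched and unscratched wild-type cells. Eprs, the joint glutamate and proline enzyme of the cytosol, whose symbol falls outside the naming rule and which is therefore no member, rose as well (log2 0.21 ± 0.06 SE), with 244 and 223 CPM in scratched and unscratched knockout-labelled cells and 222 and 180.4 CPM in scratched and unscratched wild-type cells. The scaffold proteins Aimp1 and Aimp2 had log2 effects of 0.07 ± 0.05 and 0.11 ± 0.09 SE and did not pass. Xpot, the exporter of tRNA from the nucleus, rose (log2 0.43 ± 0.05 SE), with 65.6 and 49.7 CPM in scratched and unscratched knockout-labelled cells and 58.9 and 42.9 CPM in scratched and unscratched wild-type cells, while Trnt1, which adds the CCA end to tRNA, was at 0.06 ± 0.07 SE. None of the 3 tested editing enzymes (Prorsd1, Dtd1 and Dtd2; Aarsd1 was under 1 CPM), none of the 4 genes for mitochondrial transamidation and formylation (Gatb, Gatc, Qrsl1 and Mtfmt) and neither selenocysteine gene (Pstk and Sepsecs) passed in either direction.

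Of 13 regulators and reporters of the amino acid response, 6 rose and 0 fell after the scratch by the same test, against 1.47% and 1.44% of all genes. The 6 were Asns (log2 0.57 ± 0.06 SE), Trib3 (log2 0.56 ± 0.08 SE), a pseudokinase induced by ATF4, Chac1 (log2 0.48 ± 0.10 SE), which degrades glutathione, Nupr1 (log2 0.42 ± 0.10 SE), a stress protein, Sesn2 (log2 0.36 ± 0.08 SE), a leucine sensor, and Atf4 itself (log2 0.25 ± 0.06 SE). Atf4 mRNA had 212 CPM in scratched and 193 CPM in unscratched knockout-labelled cells, against 268 and 207 CPM in scratched and unscratched wild-type cells. Asns had 149 and 99.9 CPM in scratched and unscratched knockout-labelled cells and 168 and 114 CPM in scratched and unscratched wild-type cells, so its folds of 1.49 in knockout-labelled and 1.47 in wild-type cells were above those of every cytosolic synthetase. The mRNAs of the kinases that start this response, Eif2ak4 (0.02 ± 0.08 SE) and Eif2ak3 (0.01 ± 0.05 SE), did not pass. Neither did Atf3, Atf5, Ddit3, Cebpb and Cebpg. Within a genotype, Cebpb was called lower in wild-type cells (0.72-fold), and Atf3 and Ddit3 were called higher there. Atf5 was called higher in knockout-labelled cells only. Atf4 and Nupr1 were called higher in wild-type cells (1.29-fold and 1.56-fold) but not in knockout-labelled cells (1.10-fold and 1.14-fold).

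The cytosolic response was smaller in knockout-labelled than in wild-type cells for most members. The difference of the log2 responses, knockout-labelled minus wild type, was below 0 for 17 of 19 cytosolic members, with a median of -0.10 against -0.01 for all genes. For 9 of the 19 the counting interval lay below 0 and for 0 above it, against 15.1% and 11.8% of all genes. These intervals narrow with abundance, and the cytosolic members are abundant. Rars differed by -0.19 (counting interval -0.29 to -0.08), Lars by -0.16 (counting interval -0.25 to -0.07), Iars by -0.16 (counting interval -0.25 to -0.06) and Gars by -0.13 (counting interval -0.18 to -0.07), whereas Aars differed by -0.00124 (counting interval -0.05 to 0.05). None of these reached 1.2-fold, which 4.29% of all genes passed with a larger and 3.43% with a smaller response in knockout-labelled cells. With 1 library per condition the interval covers counting error alone, and a test of the difference over cultures could not be had.

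In summed CPM, the known ATF4 targets stood at 1987 in scratched and 1705 in unscratched knockout-labelled cells, against 2048 and 1662 in scratched and unscratched wild-type cells. The 7 other cytosolic genes stood at 779.7 and 748 in scratched and unscratched knockout-labelled cells and at 732 and 656 in scratched and unscratched wild-type cells. The targets were thus highest in the 2 scratched libraries. The unscratched wild-type library was the lowest for the targets and for the others alike, and the others were closer together in the remaining 3. In bulk RNA, more cells expressing a gene and more RNA per cell cannot be told apart.

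**Figure D4:**
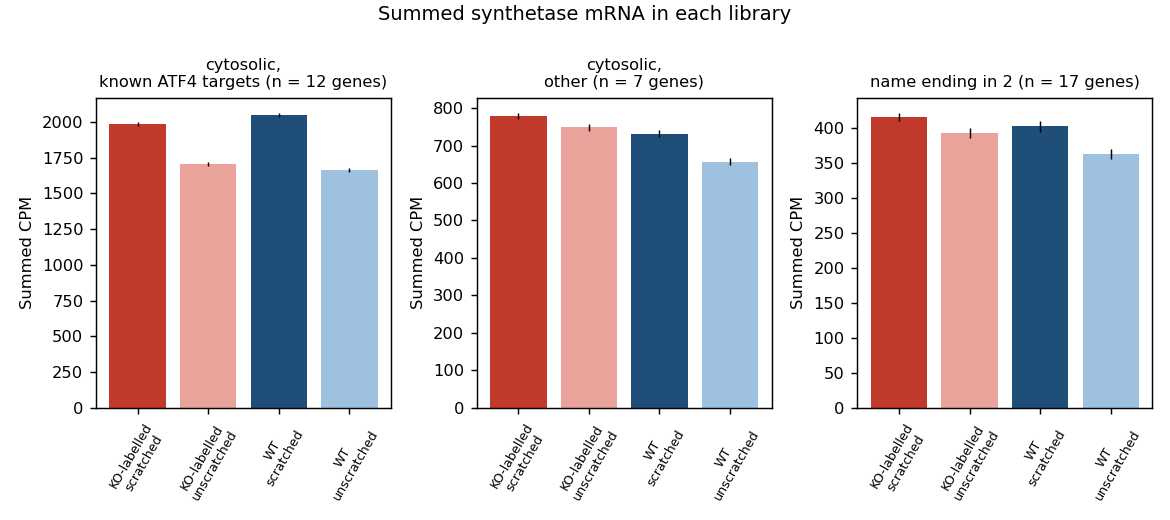
Summed CPM of the known ATF4 targets among cytosolic synthetases, the other cytosolic synthetases and the members ending in 2, in each of the 4 libraries, with bars from 0 and error bars for 95% Poisson counting error (normal approximation). The unscratched wild-type library is the lowest in every panel, and the left and right panels show both scratched libraries above both unscratched ones.

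Between the genotypes, 10 of 19 cytosolic members were higher in knockout-labelled cells after the scratch and 15 without it, by sign alone, as were 10 and 13 of the 17 members ending in 2. The median log2 difference of all genes was near 0 in both, at 0.00 after the scratch and 0.01 without it. In the libraries labelled knockout, 4 cytosolic members passed as higher and 1 as lower in the edgeR quasi-likelihood test, where 13.8% of all genes rose and 12.2% fell. DESeq2 called 1 of these, Vars, where it called 4.62% of all genes higher and 3.22% lower. Vars (log2 0.27 ± 0.05 SE), Qars (log2 0.22 ± 0.06 SE), Rars (log2 0.18 ± 0.06 SE) and Iars (log2 0.17 ± 0.06 SE) rose, and Yars fell (log2 -0.23 ± 0.06 SE). Among the members ending in 2, Pars2 fell (log2 -0.37 ± 0.09 SE). Of the partners, Eprs (log2 0.22 ± 0.06 SE), Aimp1 (log2 0.20 ± 0.05 SE) and Xpot (log2 0.18 ± 0.05 SE) rose as well.

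After the scratch, 1 cytosolic member (Vars) was called higher and 1 (Yars) lower in knockout-labelled cells, against 9.54% and 7.52% of all genes, and without a scratch 2 (Qars and Rars) were called higher and 0 lower, against 11.7% and 10.2%. The cytosolic medians were 0.02 after the scratch and 0.14 without it, against 0.04 and 0.06 for members ending in 2 and 0.00 and 0.01 for all genes. The unscratched comparison and the wild-type scratch response share the unscratched wild-type library. The sum of the 19 cytosolic genes in knockout-labelled cells was 0.995 times the wild-type one after the scratch (95% counting interval 0.987 to 1.004) and 1.06 times without it (1.05 to 1.07).

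Pars2, the mitochondrial proline enzyme (chromosome 4, 106651069 to 106655282), was lower in knockout-labelled cells both times, with 16.6 CPM in scratched and 15.8 CPM in unscratched knockout-labelled cells, against 21.9 and 19.96 CPM in scratched and unscratched wild-type cells, a ratio of 0.758 after the scratch and 0.791 without it. Vars (chromosome 17, 35000987 to 35016322) had 104 CPM in scratched and 91.7 CPM in unscratched knockout-labelled cells, against 83.9 and 78.4 CPM in scratched and unscratched wild-type cells, the knockout-labelled library being higher by 1.24-fold after the scratch and 1.17-fold without it. Yars was lower in knockout-labelled cells, at a ratio of 0.827 after the scratch and 0.883 without it, and Qars higher, at 1.11 and 1.21 in the same order. In each of these 4 genes the same genotype was the higher one with and without the scratch. All 4 had passed the test over both pairs of libraries, which favours genes with the same sign in both. By sign alone, 14 of 19 cytosolic members and 14 of 17 ending in 2 went the same way in both, against 72.8% of all genes.

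Of all 17 members ending in 2, 4 were called higher and 1 lower in knockout-labelled cells after the scratch, against 9.54% and 7.52% of all genes. Without a scratch 2 were called higher and 1 lower, against 11.7% and 10.2%. Not all of these are reported singly. Aars2, Ears2 and Mars2 were called higher after the scratch, at 1.31, 1.24 and 1.22 times wild type, with 1.09, 1.14 and 1.01 without it. Wars2 was called higher without a scratch, at 1.25 times (1.13 after it). Of Aars2, Ears2, Mars2 and Wars2, none passed edgeR's quasi-likelihood test, the lowest adjusted p among them being 0.0517 (Wars2). Among the 13 regulators of the amino acid response, 5 fell and 0 rose with the knockout label, against 12.2% and 13.8% of all genes. The 5 were Nupr1 (log2 -0.53 ± 0.10 SE), Ddit3 (log2 -0.35 ± 0.10 SE), Atf4 (log2 -0.22 ± 0.06 SE), Asns (log2 -0.18 ± 0.06 SE) and the kinase Eif2ak3 (log2 -0.15 ± 0.05 SE). Of the 4 tested fibroblast markers, 3 rose with the same labels. Col1a1 (log2 3.31 ± 0.07 SE) had 177 and 197 CPM in scratched and unscratched knockout-labelled cells and 16.5 and 21.3 CPM in scratched and unscratched wild-type cells. Pdgfrb (log2 6.86 ± 0.57 SE) had 2.82 and 2.26 CPM in knockout-labelled and 0.0358 and 0 CPM in wild-type cells, in the same order. Pdgfra (log2 0.79 ± 0.25 SE) was the third. The list summed to 2663 and 2912 CPM in scratched and unscratched knockout-labelled and 2837 and 2868 CPM in scratched and unscratched wild-type cells. Most of that was Dcn, which did not pass. Col1a2, Col3a1 and Lum stayed under 1 CPM. Of the 6 tested lung epithelium markers, 3 rose too: Sftpb (log2 2.05 ± 0.06 SE), with 93.5 and 107 CPM in scratched and unscratched knockout-labelled cells and 22.9 and 25.4 CPM in scratched and unscratched wild-type cells, Sftpc (log2 1.74 ± 0.10 SE), with 19.8 and 20.6 CPM in scratched and unscratched knockout-labelled cells and 6.42 and 5.68 CPM in scratched and unscratched wild-type cells, and Krt8 (log2 0.38 ± 0.06 SE). Both marker counts stand against the 13.8% of all genes that rose with the label. The part of either marker list in the synthetase values was not tested.

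**Figure D5:**
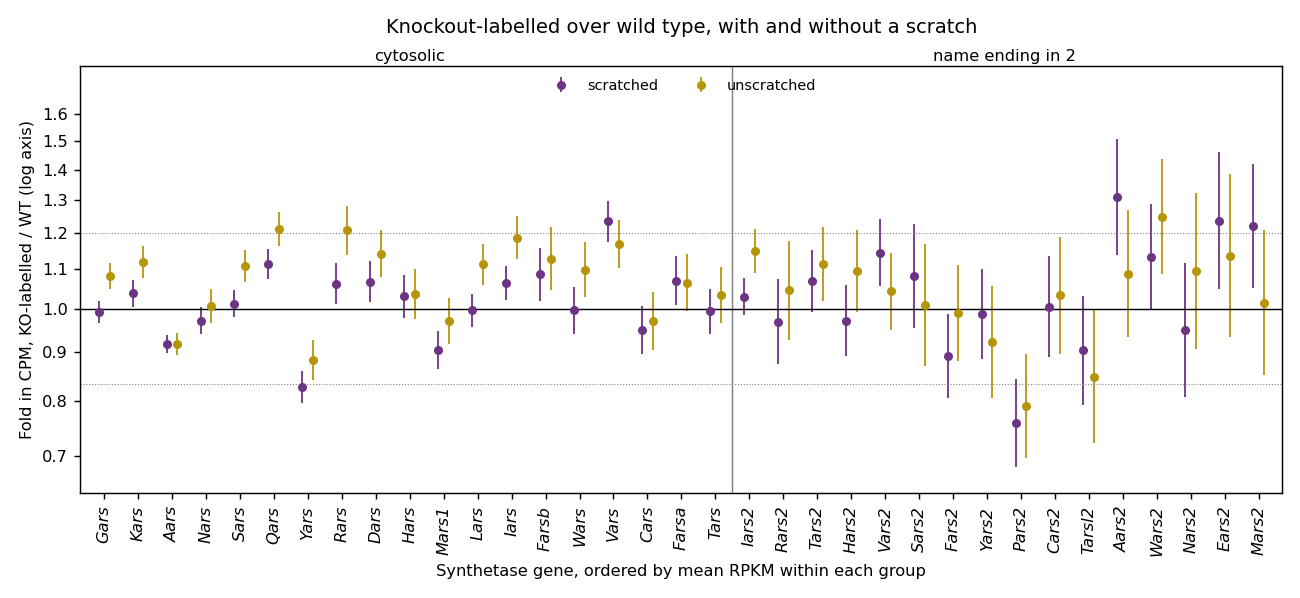
Fold in CPM between the knockout-labelled and the wild-type library (log axis) for the synthetase genes reported singly, purple after the scratch and gold without it, with exact 95% counting intervals and dotted lines at 1.2-fold either way. Pars2 lies lowest, at 0.758 and 0.791, and most cytosolic members lie between these lines.

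Overlap with other genes limits some members, because the sources used here do not give whether the counting used strand. In the annotation 15 of 36 members share exon bases with another gene. The largest share was that of Iars2, 22.9% of whose exon bases lie opposite Rab3gap2, followed by Aars with 14.3% in common with Exosc6 on the same strand, a gene not analysed here. Hars and Hars2 overlap head to head over 195 bases, and Mars1 overlaps the end of Ddit3 by 68. Pars2, Vars, Iars, Nars, Tars, Gars and Lars share none.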

How the data were processed

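Per the submitters' processing notes, the authors' tools were Trimmomatic 0.39, STAR 2.7.9a, HTSeq 0.11.3 and edgeR 3.32.1, with the build mm10. The authors deposited whole-number counts per gene, and a second deposited table holds RPKM, which was used for levels between genes and for the choice of members. Counts were scaled by TMM in edgeR 4.0.16 (R 4.3.3) to CPM, and 12348 genes with at least 1 CPM in at least 1 library were tested. Folds between 2 libraries carry exact Clopper-Pearson intervals of 95%, and log2 differences a prior count of 2. A model of genotype plus scratch over the 4 libraries was tested by edgeR's quasi-likelihood test with Benjamini-Hochberg adjustment at 0.05. It has 1 residual degree of freedom. It was run on simulated counts drawn with its own estimate of spread and the same scratch response in both genotypes. That run therefore cannot show how the p-values behave over cultures. A standard error is the log2 effect divided by the square root of F. DESeq2 1.42.0, other scalings, filters and minimum folds, the RPKM values on a log2 scale with a pseudocount, and the lists without Gars and Kars or with Tarsl2 as cytosolic were the alternatives. By the rule for naming, members are named with their CPM, and genes of the other lists where they were tested. The members and lists were chosen with earlier results of these data known, and the search for CACGTG was added last. Lists and sums cover all members, and some single results are not reported here. Totals of 26903429 to 48333801 counts per library set the precision.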

Additional observations from a re-analysis of the deposited data

Results flagged for a closer look

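In 7 of the members reported singly the scratch response had opposite signs in the knockout-labelled and the wild-type cells. The difference of the log2 responses, knockout-labelled minus wild type, was 0.27 for Aars2 and 0.14 for Vars2 where knockout-labelled cells were the higher, and -0.12 for Qars, -0.14 for Wars2, -0.15 for Fars2, -0.17 for Hars2 and -0.21 for Nars2 where they were the lower. Of these 7, only Qars had a counting interval for the difference that excluded 0 (-0.20 to -0.04). In 6 further members the difference between knockout-labelled and wild-type cells had opposite signs after the scratch and without it. The scratched difference minus the unscratched one was -0.0513 for Nars, -0.0562 for Tars, -0.11 for Rars2, -0.13 for Gars, -0.14 for Wars and -0.16 for Lars on the log2 scale. By sign alone, the knockout-labelled library was the lower one after the scratch and the higher one without it in each. The counting interval of the scratched ratio included 1 in all 6, and that of the unscratched ratio did so in Nars, Tars and Rars2. With 1 library per condition none of these differences was tested.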

How the results depend on the processing

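Call counts depended on the minimum fold more than on scaling or filter. With a minimum of 1.5-fold or 2-fold in place of 1.2-fold, every count of called cytosolic members and members ending in 2 was 0 in all 4 comparisons. With total counts in place of TMM, 2 cytosolic members in place of 4 were called higher after the scratch in knockout-labelled cells. With DESeq2, 4 cytosolic members in place of 9 rose after the scratch (Aars, Iars, Nars and Yars), and between the genotypes 1 cytosolic member rose (Vars) and 0 fell, with 0 and 0 among those ending in 2. The cause was not tested. For single genes, the effect of the scratch on Aars2 was -0.00444 with DESeq2 size factors and -0.0112 with total counts, and the genotype effect on Rars2 was -0.00433 with total counts, each the reverse of a value near 0 that did not pass. Lars after the scratch and Iars between genotypes did not pass with total counts, and Rars passed after the scratch with no filter or with at least 5 CPM. With at least 5 CPM, Dars and Farsb also passed between the genotypes, so 6 cytosolic members rose in place of 4. With total counts or DESeq2 size factors, 2 members ending in 2 in place of 3 were called higher after the scratch in knockout-labelled cells. Depth limits the members ending in 2 most, at 188 to 5204 counts per library.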
